A study of Mus musculus and Homo sapiens with 12 samples.

Results

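Wnt and Notch signalling were examined through 7 genes, WNT7B, AXIN2, NOTCH1, NOTCH2, NOTCH3, JAG1 and HES1, read by name in a mouse and a human breast cancer line, which gives 14 genes among 114564 listed in both tables. The choice of these genes was made with results of these data known, the difference between the EMT6 genotypes among them, so their EMT6 values are a description and support no test. EMT6 cells come from a mouse mammary carcinoma. MDA-MB-231 cells come from a human breast adenocarcinoma. Each line was profiled by single-end poly(A) RNA sequencing as wild type and as a PFKFB4 knockout, with 3 libraries in each of the 4 groups. PFKFB4 is an enzyme that sets the level of a sugar phosphate controlling glycolysis. All cells grew in the same high-glucose medium with serum. How the gene was deleted, and whether a knockout line is 1 clone, is not given in the sources used here. Each library is titled as a biological replicate, but no label states whether replicates were grown as separate cultures. For that reason p-values are read only as measuring the spread between these libraries.

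Wnt proteins are secreted lipid-modified ligands that bind Frizzled receptors with the co-receptors LRP5 and LRP6. Their canonical branch stabilises beta-catenin, which enters the nucleus and switches on targets through TCF/LEF factors, and one such target, AXIN2, feeds back on the pathway as a scaffold of the complex that degrades beta-catenin. Notch receptors are cut in steps after a ligand such as JAG1 on a neighbouring cell binds them, and the released fragment joins the DNA-binding protein RBPJ to switch on repressors such as HES1. Both pathways guide mammary stem and lineage decisions.

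Transcript abundance is given as TPM, a length-corrected share of a library whose total is 1000000. Differences are log2 fold changes of TPM + 1, knockout minus wild type, a scale that understates the change of low genes. In EMT6, Pfkfb4 stood at 10.2, 10.5 and 10.4 TPM in wild-type cells and at 6.96, 6.87 and 8.24 TPM in knockout cells. Of 13499 EMT6 genes tested with limma, 42.3% were called lower and 14.5% higher at an adjusted p of 0.05, and the median log2 fold change was -0.21. Median-ratio scaling, which centres the libraries on their typical gene, gave 24.8% lower and 27.0% higher with a median of -0.01. Removing the trend on exon length gave 26.6% lower and 23.2% higher. Of 15299 MDA-MB-231 genes tested, 12.1% were called lower and 7.97% higher, with medians of -0.04 in TPM and 0.01 after median-ratio scaling. The SD of log2 differences between libraries of 1 group spanned 0.42 to 0.44 in EMT6, while MDA-MB-231 spanned 0.41 to 0.52. Of 8 mammary carcinoma markers in EMT6, Krt8 and Vim were abundant and rose slightly (limma log2 fold changes 0.15 and 0.28, adjusted p = 0.0302 and 0.00253). The other keratin genes past the filter fell, Krt14 from 36.5 to 3.94 TPM (-2.92, adjusted p = 1.06e-05), Krt18 from 36.3 to 15.5 TPM (-1.17, adjusted p = 0.000368) and Krt19 from 1.95 to 0.0177 TPM (-1.53, adjusted p = 6.6e-05). No knockout library had Krt19 at the filter of 0.5 TPM, so among tested genes it had to be lower. Krt5, Cdh1 and Epcam did not exceed 0.0275, 0.00909 and 0.288 TPM. The 8 leukocyte markers summed to 25.02 to 29.4 TPM in wild-type cells and 58.1 to 63.6 TPM in knockout cells, while Ptprc, which defines leukocytes, was at or near 0 and 6 of the 8 stayed under 1 TPM. Cd68 and Coro1a carried the sum, at 23.9 and 2.17 TPM in wild-type cells and 56.1 and 5.14 TPM in knockout cells. All 6 endothelial markers stayed under 1 TPM. The 5 fibroblast markers summed to 5.997 to 7.18 TPM and 5.62 to 5.69 TPM, over opposite changes. Dcn rose from 0.412 to 2.52 TPM (1.32, limma adjusted p = 0.000156), Pdgfra fell from 4.83 to 2.18 TPM (-0.87, adjusted p = 0.00112) and Pdgfrb from 1.24 to 0.927 TPM (-0.21, adjusted p = 0.0228), while Lum and Fap were at or near 0. No wild-type library had Dcn at 0.5 TPM, so it entered the test through the knockout alone and had to be higher. The part of these markers in the Wnt and Notch values was not tested. In bulk RNA, fewer cells of a type and less RNA per cell cannot be told apart. Human markers and the human PFKFB4 transcript were not analysed here.

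In EMT6, 6 of the 7 genes passed the filter of at least 0.5 TPM in 3 libraries, and each had lower values in every knockout library than in any wild-type library. Among all tested genes, 48.3% had groups that did not overlap with the knockout lower, and 17.9% with it higher. The same 6 were called lower, against 42.3% of tested genes. Because the genes were chosen on this contrast, nothing is read from either count. The log2 fold changes ran from -1.86 to -0.84, and the 7th gene, Notch3, was close to absent.

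Wnt7b encodes a Wnt ligand active in branching epithelia (chromosome 15, 85535437 to 85582473 on GRCm38, minus strand). Its level was 23.5, 22.6 and 25.6 TPM in the wild-type EMT6 libraries and 5.53, 6.29 and 5.72 TPM in knockout cells. The means were 23.9 ± 1.54 and 5.85 ± 0.397 TPM (SD, n = 3 each), so that 24.4% of the wild-type level was left. The 3 knockout libraries were tightly grouped and far from the wild type. The log2 fold change was -1.86 ± 0.07 (SE).

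Axin2, the feedback scaffold and a widely used readout of canonical Wnt signalling (chromosome 11, 108920349 to 108950783, plus strand), lay lower in abundance and showed the largest proportional difference of the 6. It stood at 3.505, 5.18 and 4.61 TPM in wild-type cells and at 0.568, 0.269 and 0.658 TPM in knockout cells. The means were 4.43 ± 0.854 and 0.498 ± 0.204 TPM (SD, n = 3 each), with 11.2% of the wild-type level left. Its log2 fold change was -1.86 ± 0.16 (SE), and -2.97 with a pseudocount of 0.1 in place of 1. It reached the filter in every wild-type library but in only 2 knockout libraries.

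RefSeq sequences for GRCm38.p6 were listed for the promoters of 5 of the 7 mouse genes, Axin2, Jag1, Notch1, Notch2 and Notch3. The 250 bases before the RefSeq start of Axin2 and of Notch2 are shown, because these are the Wnt feedback gene and the main Notch receptor that were lower together in EMT6. Capitals mark matches to 3 short motifs searched on both strands, the RBPJ core TGGGAA, the TCF/LEF core CTTTGA and the HES N-box CACNAG. The windows are chr11:108920099-108920348 and chr3:98013288-98013537, both on the plus strand. RefSeq starts can differ from the gene ends given here, which are from GENCODE: the Notch2 and Jag1 windows run past the GENCODE start, and the Notch1 window, 26503823 to 26504072 on chromosome 2, lies inside the GENCODE gene.
Axin2: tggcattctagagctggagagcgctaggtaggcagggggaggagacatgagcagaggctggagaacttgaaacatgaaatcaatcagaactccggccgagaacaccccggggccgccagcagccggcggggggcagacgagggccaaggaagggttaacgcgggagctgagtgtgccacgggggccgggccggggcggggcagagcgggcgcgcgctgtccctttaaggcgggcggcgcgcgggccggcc
Notch2: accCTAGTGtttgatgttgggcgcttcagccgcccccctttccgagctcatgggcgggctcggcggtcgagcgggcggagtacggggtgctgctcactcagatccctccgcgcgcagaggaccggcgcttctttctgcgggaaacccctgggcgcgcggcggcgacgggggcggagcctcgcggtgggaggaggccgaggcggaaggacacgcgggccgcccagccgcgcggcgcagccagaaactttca

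The letters TGGGAA and CTTTGA were in none of the 5 windows, and among all 32851 promoter windows of this length they were in 21.6% and 13.8%. CACNAG was in the windows of Notch1, Notch2 and Notch3, and in 36.7% of all windows. In Notch2 it lay at -247 to -242 from the start, read on the minus strand. A match is a string of letters and not a shown binding site. The 2 printed windows were rich in G and C, at 69.2% in Axin2 and 72% in Notch2, against a median of 52.4% over all windows.

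**Figure D1:**
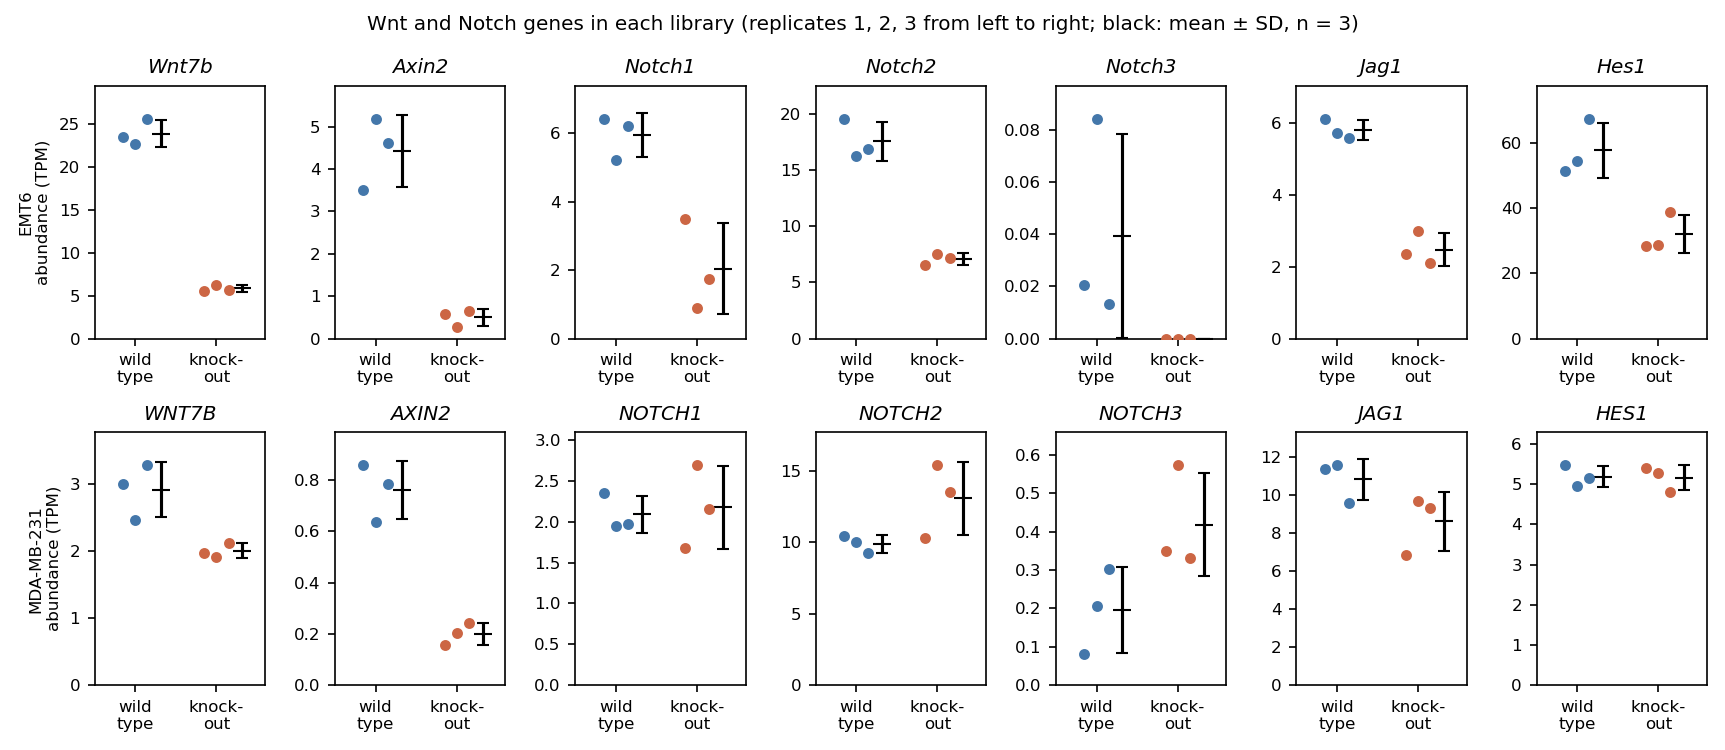
Abundance in TPM (vertical axes from 0, scaled per gene) of the 7 genes in the 3 wild-type (blue) and 3 knockout (orange) libraries of EMT6 (top) and MDA-MB-231 (bottom), with the mean ± SD in black. In EMT6 every gene has its knockout libraries below its wild-type libraries, and in MDA-MB-231 this holds for WNT7B and AXIN2, while NOTCH1, NOTCH2, JAG1 and HES1 overlap and NOTCH3 lies higher in the knockout at under 0.6 TPM.

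On the Notch side, Jag1 encodes a transmembrane ligand (chromosome 2, 137081456 to 137116644, minus strand). It was measured at 6.11, 5.72 and 5.57 TPM in the wild-type EMT6 libraries and at 2.34, 2.99 and 2.09 TPM in knockout cells. The groups were well apart, with means of 5.8 ± 0.278 and 2.47 ± 0.466 TPM (SD, n = 3 each). The log2 fold change was -0.98 ± 0.11 (SE).

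Notch2 was the most abundant of the 3 member receptors in EMT6 (chromosome 3, 98013527 to 98150361, plus strand). It had 19.6, 16.3 and 16.9 TPM in wild-type cells and 6.54, 7.51 and 7.19 TPM in knockout cells, with means of 17.6 ± 1.75 and 7.08 ± 0.496 TPM (SD, n = 3 each). Its log2 fold change was -1.20 ± 0.09 (SE), and -0.77 with the exon length trend removed. The libraries of each genotype were close together.

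Notch1 (chromosome 2, 26457903 to 26516663, minus strand) was the least even of the 6 genes. Its level was 6.42, 5.22 and 6.202 TPM in wild-type cells, but 3.497, 0.884 and 1.75 TPM in knockout cells, a spread of 1.33 TPM (SD) around a mean of 2.04 TPM. The wild-type mean was 5.94 ± 0.64 TPM (SD, n = 3). Knockout replicate 1 was the highest and replicate 2 the lowest, and neither reached the wild-type range. The log2 fold change of -1.28 ± 0.31 (SE) became -0.80 with the exon length trend removed, where the gene was no longer called.

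Notch3 (chromosome 17, 32120820 to 32166852, minus strand) was listed at 0.0206, 0.0843 and 0.0132 TPM in the wild-type EMT6 libraries and at 0 in each knockout library. It did not pass the filter, and no fold change is given. Hes1, the basic helix-loop-helix repressor downstream of Notch (chromosome 16, 30064384 to 30067796, plus strand), was the most abundant of the 7. It was found at 51.4, 54.7 and 67.5 TPM in wild-type cells and 28.5, 28.9 and 38.8 TPM in knockout cells, with means of 57.9 ± 8.52 and 32.04 ± 5.84 TPM (SD, n = 3 each). Its log2 fold change of -0.84 ± 0.15 (SE) was the smallest of the 6, and 55.4% of the wild-type level was left.

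In order of level, wild-type EMT6 ran Hes1, Wnt7b, Notch2, Notch1, Jag1, Axin2 and Notch3. Only Notch1 and Jag1, at 5.22 to 6.42 and 5.57 to 6.11 TPM, had overlapping ranges. In the knockout, Notch2 stood above Wnt7b and Jag1 above Notch1. The last 2 again overlapped, at 2.09 to 2.99 and 0.884 to 3.497 TPM.

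In MDA-MB-231 most of the 7 genes showed no difference that passed the test. Of the 6 genes past the filter, 1 was called lower and 0 higher, against 12.1% and 7.97% of all tested genes. The 6 log2 fold changes ran from -0.55 to 0.35, with a median of -0.16. The groups did not overlap for AXIN2 and WNT7B, both lower, which is 2 of 6 genes against 22.9% of tested genes with the knockout lower and 17.2% with it higher. The human genes are known to these tables only by identifier, so their positions are not given.

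AXIN2 (ENSG00000168646) was measured at 0.857, 0.636 and 0.786 TPM in wild-type cells and at 0.157, 0.202 and 0.242 TPM in knockout cells of MDA-MB-231. It fell by 0.55 ± 0.09 on the log2 scale (SE; limma adjusted p = 0.00881), and by 1.52 with a pseudocount of 0.1. All its values were under 1 TPM and the knockout libraries were under the filter, so it entered the test through the wild type alone, where a gene had to be higher. With a filter of 1 TPM it was not tested. The knockout kept 26.4% of its wild-type mean, beside 11.2% for Axin2 in EMT6.

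WNT7B (ENSG00000188064) had 3.003, 2.46 and 3.28 TPM in wild-type cells and 1.97, 1.91 and 2.12 TPM in knockout cells. Every knockout library was below every wild-type library, with 68.7% of the mean left, but the log2 fold change, -0.38 with an SE of 0.12, missed the threshold (adjusted p = 0.0692 by limma). Without wild-type replicate 2 it was -0.46 and passed (adjusted p = 0.049). The wild-type level was 2.91 TPM here and 23.9 TPM in EMT6, in tables that were normalized separately.

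JAG1 (ENSG00000101384) was the most abundant of the 7 in wild-type MDA-MB-231, at 11.4, 11.6 and 9.595 TPM, with 6.86, 9.69 and 9.303 TPM in knockout cells. Its ranges overlapped narrowly, and the log2 difference was -0.31 with an SE of 0.15 (adjusted p = 0.2 by limma). NOTCH2 (ENSG00000134250) had 10.5, 10.02 and 9.21 TPM in wild-type cells and 10.3, 15.4 and 13.5 TPM in knockout cells, a log2 difference of 0.35 with an SE of 0.15 (adjusted p = 0.157 by limma). Only knockout replicate 1 lay inside the wild-type range, and without it NOTCH2 was called higher (0.50, adjusted p = 0.0366). Near-identical NOTCH2 copies exist in the human genome, and how reads were split among them is not given in the sources used here.

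NOTCH1 (ENSG00000148400) lay at 2.36, 1.95 and 1.97 TPM in wild-type cells and 1.68, 2.69 and 2.16 TPM in knockout cells, so the knockout libraries lay on both sides of the wild type (log2 difference 0.03, SE 0.15, adjusted p = 0.912 by limma). Knockout replicate 1 was the lowest knockout library for AXIN2, NOTCH1, NOTCH2 and JAG1, the highest for HES1, and in between for WNT7B and NOTCH3. Its median-ratio factor was 0.919, against 0.996 and 1.04 for the other knockout libraries, and its part in these values was not tested. NOTCH3 (ENSG00000074181) had 0.0798, 0.207 and 0.303 TPM in wild-type cells and 0.351, 0.573 and 0.332 TPM in knockout cells, higher in each knockout library but too low for the filter. HES1 (ENSG00000114315) had overlapping groups, with 5.47, 4.95 and 5.15 TPM in wild-type cells and 5.42, 5.28 and 4.82 TPM in knockout cells (log2 difference -0.0057, SE 0.101, adjusted p = 0.976 by limma, and 0.0497 after median-ratio scaling).

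The order of levels in wild-type MDA-MB-231 was JAG1, NOTCH2, HES1, WNT7B, NOTCH1, AXIN2 and NOTCH3, with overlapping ranges for JAG1 and NOTCH2 only. In the knockout NOTCH2 came first, at 10.3 to 15.4 TPM against 6.86 to 9.69 TPM for JAG1. WNT7B and NOTCH1 overlapped there. Set side by side, AXIN2 and WNT7B had lower knockout libraries in both lines. The EMT6 side is a description, as the genes were chosen on it. In MDA-MB-231 AXIN2 entered the test through the wild type alone and WNT7B was not called. There, 22.9% of tested genes had groups that did not overlap with the knockout lower. JAG1, NOTCH1, NOTCH2 and HES1 were lower in EMT6 and were at log2 fold changes of -0.31, 0.03, 0.35 and -0.0057 in MDA-MB-231. The difference between the lines was not tested, since the tables were normalized separately.

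**Figure D2:**
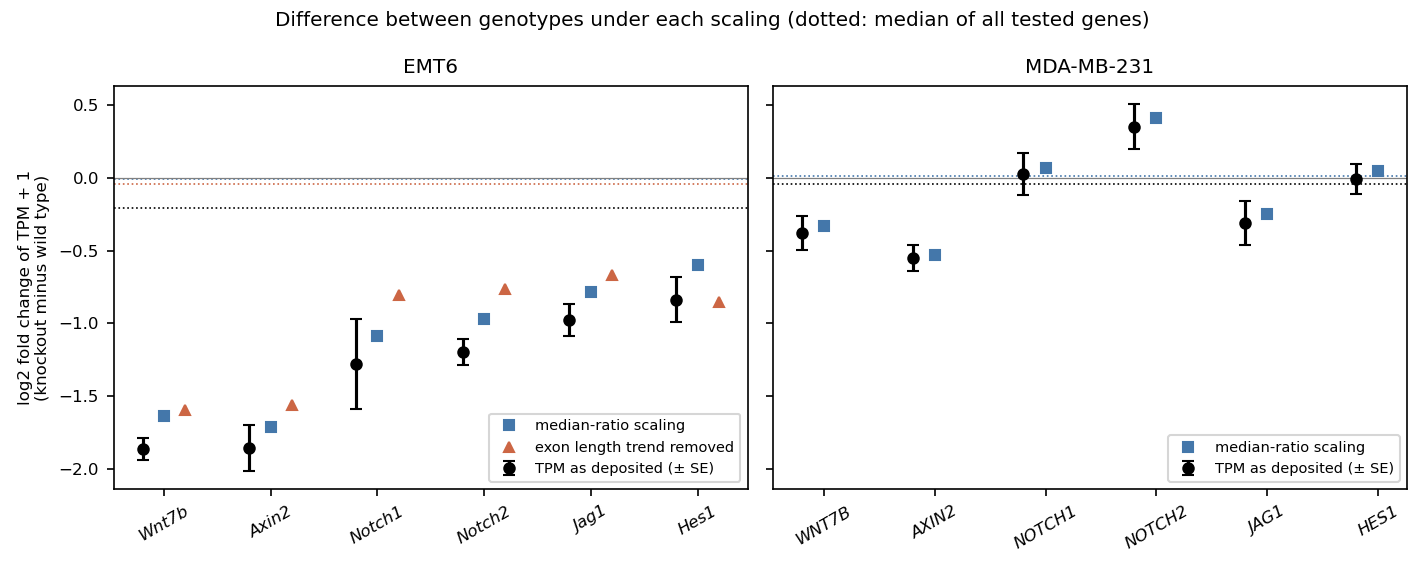
Log2 fold change of TPM + 1 (vertical axis, knockout minus wild type) of the 6 genes tested in each line, from TPM as deposited (black circles ± SE), after median-ratio scaling (blue squares) and, in EMT6, with the exon length trend removed (orange triangles), with dotted lines at the median of all tested genes. The EMT6 values lie between -1.86 and -0.84 in TPM, below the median of -0.21, and the MDA-MB-231 values lie between -0.55 and 0.35.

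Both the sum and the makeup of Wnt ligand transcripts differed between the EMT6 genotypes. Wnt7b was chosen with this contrast known, so the lower sum and the changed shares are in part a description of that choice. The 19 mouse Wnt ligand genes together held 70.6, 68.7 and 76.8 TPM in wild-type cells and 27.1, 26.9 and 28.8 TPM in knockout cells. Wnt7b made up 33.3, 32.95 and 33.4% of that sum in wild type and 20.4, 23.4 and 19.8% in the knockout. Wnt10a, a ligand of skin and tooth development, went from 15.6, 15.8 and 16.8% to 5.99, 4.99 and 5.18%. Wnt10b, a ligand studied in mammary tumours, held 49.1, 49.4 and 47.9% and then 71.03, 68.7 and 72.1%, although its own level was lower. So the 3 genes made up nearly all Wnt ligand RNA in both genotypes, and Wnt10b was the largest part in each library.

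The 4 mouse Notch receptor genes summed to 31.2, 29.7 and 29.8 TPM in wild-type EMT6 and 12.2, 13.6 and 12.8 TPM in knockout cells. Notch1 and Notch2, which held most of this sum, were chosen with this contrast known, so nothing is read from the lower sum. Notch2 held 62.7, 54.7 and 56.6% of the sum in wild type and 53.5, 55.3 and 56.04% in the knockout, ranges that overlap. The Notch1 share was 20.6, 17.6 and 20.8% in wild type but 28.6, 6.51 and 13.6% in the knockout. Notch4, a receptor best known from endothelium, made up 16.6, 27.4 and 22.5% of the sum in wild type and 17.8, 38.2 and 30.3% in the knockout. In both genotypes the library with most Notch1 TPM had the least Notch4 TPM, and the one with least Notch1 had the most. In MDA-MB-231, NOTCH2 held 80.2 to 82.3% of the sum of NOTCH1, NOTCH2 and NOTCH3 in wild type and 82.5 to 84.5% in the knockout. The NOTCH1 share there was 18.3, 16.05 and 17.1% in wild type and 13.6, 14.4 and 13.5% in the knockout. Neither the NOTCH1 nor the NOTCH2 ranges of shares overlap. A share also depends on the other genes of the sum, and NOTCH1 itself was at a log2 difference of 0.03 (adjusted p = 0.912 by limma).

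**Figure D3:**
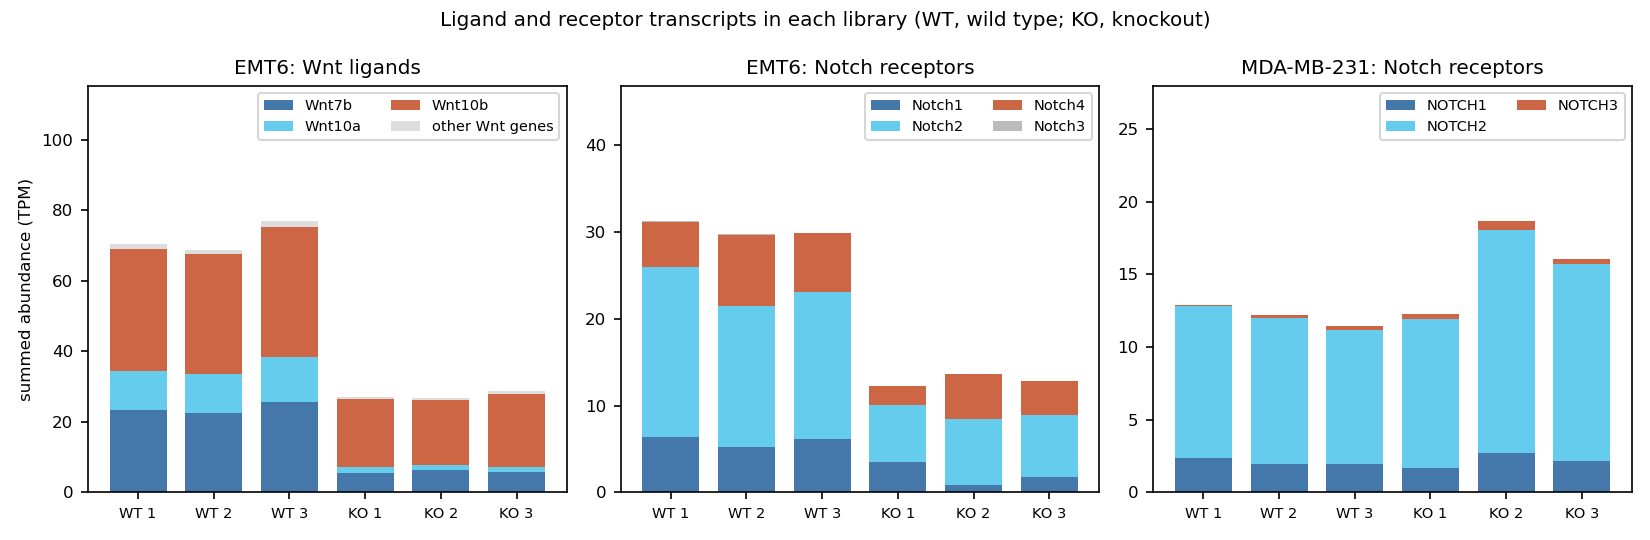
Stacked TPM (vertical axes from 0) of the mouse Wnt ligand genes and Notch receptor genes in each EMT6 library and of 3 human Notch receptor genes in each MDA-MB-231 library. The EMT6 sums are lower in every knockout library (26.9 to 28.8 TPM of Wnt ligands against 68.7 to 76.8 TPM), and Wnt10b keeps the largest part of the Wnt ligand sums. Wnt7b, Notch1 and Notch2 were chosen with this contrast known, so the lower sums are a description.

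The rest of both pathways was read in EMT6 from 12 lists with 127 genes by role. Of these, 69 passed the filter, with 55 called lower and 3 higher and a median log2 fold change of -0.53, beside 42.3% lower, 14.5% higher and a median of -0.21 over all tested genes. After median-ratio scaling 37 were lower and 4 higher (median -0.34, all genes -0.01), and correction for exon length left 31 lower and 7 higher (median -0.19, all genes -0.04). Over all tested genes these settings called 24.8% lower and 27.0% higher, and 26.6% lower and 23.2% higher. The 58 genes under the filter included 50 with means under 0.1 TPM in both groups. Fzd4, Tcf7l1, Tle4 and Rspo3 passed the filter with no library of the other genotype at 0.5 TPM, and so had to differ. Human lists were not analysed here.

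Of 18 further Wnt ligand genes, Wnt10a and Wnt10b passed the filter and both fell. Wnt10a went from 11.6 ± 1.13 TPM in wild-type cells to 1.49 ± 0.141 TPM in knockout cells (SD, n = 3 each; log2 fold change -2.34 ± 0.09, SE; limma adjusted p = 5.28e-05). Wnt10b fell from 35.1 to 19.5 TPM (-0.82, adjusted p = 0.000339). Wls, which carries Wnt proteins to the cell surface, fell from 43.2 to 22.03 TPM (-0.94, adjusted p = 0.000164), and Porcn, which attaches their lipid, stood at -0.03 (adjusted p = 0.727). All 9 tested Wnt receptor genes of 15 were called lower, with a median of -0.66, beside 42.3% of all tested genes. Fzd4, 1 of the 9, had no knockout library at 0.5 TPM, so it had to be lower. Among the 9, Fzd1 went from 8.46 to 4.03 TPM and the co-receptor Lrp6 from 6.88 to 3.304 TPM. After median-ratio scaling 8 of the 9 were called lower, and 6 with the exon length trend removed, beside 24.8% and 26.6% of all tested genes.

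The R-spondins amplify Wnt signals through LGR receptors, and their branch held the strongest opposite change. Rspo3 was at 0.00564, 0 and 0 TPM in the wild-type EMT6 libraries and at 4.32, 4.42 and 4.03 TPM in knockout cells, so it was present in the knockout and listed at or near 0 in wild type (limma adjusted p = 1.45e-05). Rspo3 entered the test through the knockout alone, so it had to be higher. The other 4 tested genes of the branch fell, among them the receptor Lgr6, from 4.401 to 2.28 TPM, and Znrf3, a ligase that removes Frizzled, from 2.65 to 1.54 TPM. Median-ratio scaling called 3 of these 4 lower, and removal of the exon length trend 2 of them. Over all tested genes 42.3% were called lower in TPM, 24.8% after that scaling and 26.6% after that removal. Znrf3 lost its call with the exon length trend removed (-0.15, adjusted p = 0.0648). Of 15 extracellular inhibitors only Kremen1, a Dickkopf receptor, passed the filter, and it fell (-0.76, adjusted p = 0.000502).

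In the cytoplasm, 10 of 12 tested transducers were called lower, beside 42.3% of all tested genes. The log2 fold change was negative for all 12 (median -0.42). Axin1, the constitutive paralogue of Axin2, fell from 84.7 to 49.7 TPM, a smaller log2 difference (-0.76) than that of Axin2, and Tnks2, a tankyrase that marks axins for destruction, fell from 56.03 to 19.6 TPM (-1.46, adjusted p = 0.000448). Ctnnb1, beta-catenin itself, was at -0.18 (adjusted p = 0.0527) and was chosen for naming after its values were seen. After median-ratio scaling 5 of the 12 transducers were called lower, beside 24.8% of all tested genes. With the exon length trend removed 3 were lower and 1 higher, beside 26.6% and 23.2% of all tested genes. All 10 tested nuclear factors of the Wnt branch were called lower (median -0.73), beside 42.3% of all tested genes. Bcl9l, a beta-catenin cofactor, was at -0.75. Tcf7l1, a TCF factor often acting as a repressor, went from 1.03 to 0.0762 TPM. Tcf7l1 and Tle4 had no knockout library at 0.5 TPM, so they had to be lower. Tle2 reached 0.5 TPM in every wild-type library but in only 2 knockout libraries. Median-ratio scaling called 8 of the 10 nuclear factors lower, and length correction 7, beside 24.8% and 26.6% of all tested genes. Of 6 other Wnt targets, Nkd1, Nkd2 and Sp5 were at or near 0 and Apcdd1 was under the filter. Cd44, a hyaluronan receptor, fell (-0.64, adjusted p = 0.00379) and Ccnd1, cyclin D1, rose slightly (0.17, adjusted p = 0.0363). Ccnd1 lost its call with no filter (adjusted p = 0.0599), when the mean-variance trend was dropped (0.0554), under a replicate block (0.0978), and on leaving out wild-type replicate 2 (0.107) or 3 (0.0708) or knockout replicate 1 (0.0814) or 2 (0.0937).

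Among Notch ligands and the remaining receptor, only Notch4 passed the filter, at 5.18, 8.15 and 6.72 TPM in wild-type cells and 2.18, 5.19 and 3.89 TPM in knockout cells (-0.73, limma adjusted p = 0.0631). Dll1, Dll3 and Dll4 did not exceed 0.123 TPM in any library, which left Jag1 as the main Notch ligand transcript in EMT6. Jag2 reached 1.58 TPM in wild-type replicate 1 and 0.343 to 0.482 TPM elsewhere. Of 18 tested processing and trafficking genes, 12 were called lower and 1 higher, beside 42.3% and 14.5% of all tested genes. The log2 fold change was negative for 15 of the 18 (median -0.41). Median-ratio scaling called 6 of the 18 lower and 1 higher, and removal of the exon length trend left 7 lower and 2 higher. Over all tested genes these settings called 24.8% lower and 27.0% higher, and 26.6% lower and 23.2% higher. Adam17, a protease that can shed the Notch ectodomain, fell from 31.05 to 13.2 TPM (-1.18). Psenen, a small subunit of the gamma-secretase complex, rose from 111 to 148 TPM (0.41, adjusted p = 0.00318). Of 7 nuclear factors, 5 were called lower, and 6 had negative log2 fold changes (median -0.42). Rbpj went from 21.9 to 11.7 TPM (-0.85), and the coactivator gene Maml1 was at -0.42. After median-ratio scaling 2 of the 7 were called lower and 1 higher. With the exon length trend removed 1 was called lower and 2 higher, and Maml1 was not called (adjusted p = 0.146). No other Notch target on the list, Hey1, Hey2, Heyl, Hes5, Nrarp or Dtx1, passed the filter, and Nrarp was the highest of them at 0.28 to 0.407 TPM in wild-type cells and 0.0842 to 0.139 TPM in knockout cells.

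**Figure D4:**
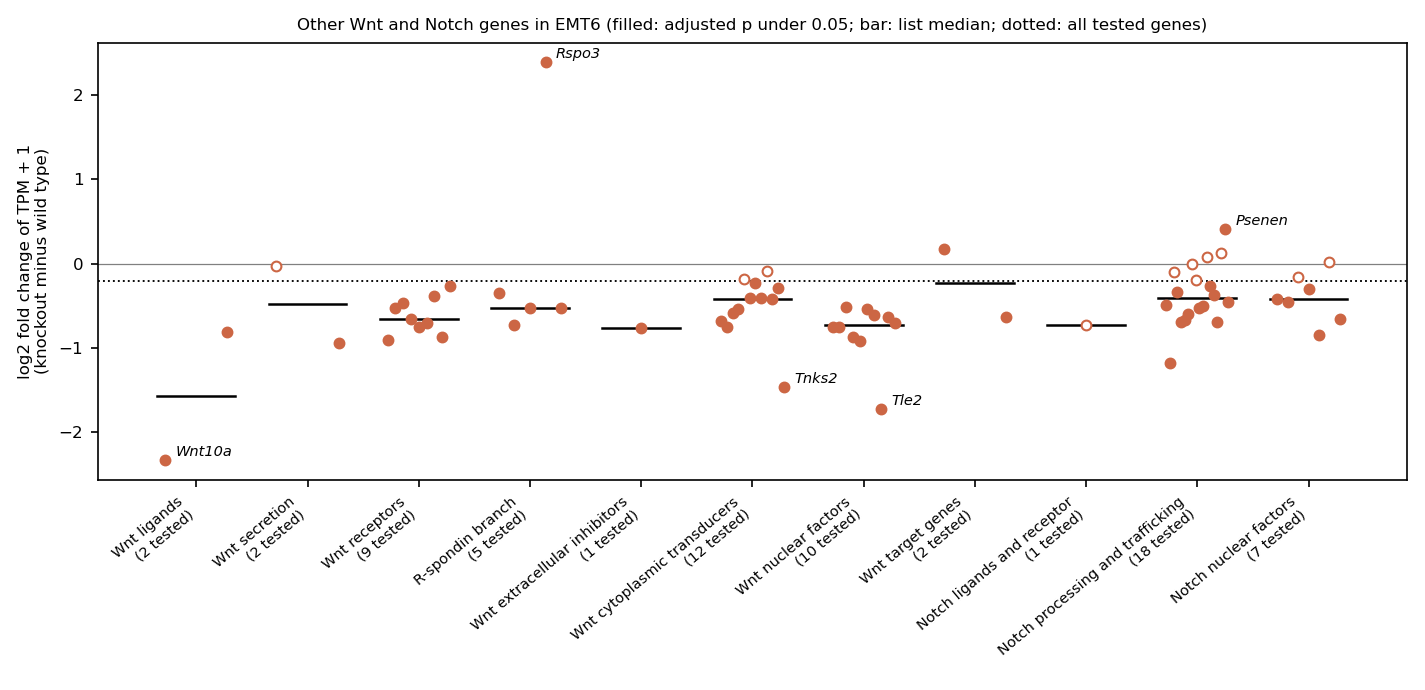
Log2 fold change of TPM + 1 in EMT6 (vertical axis, knockout minus wild type) of the 69 tested genes of the other lists, grouped by role, with filled points where the adjusted p was under 0.05, bars at list medians and a dotted line at the median of all tested genes (-0.21). Rspo3, at 2.39, stands alone above the rest, and Wnt10a, at -2.34, is the lowest; the fitted value of Rspo3 rests on the pseudocount.

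Some features outside expression were compared across the 7 mouse genes. Exon length ran from 2037 nt for Hes1 to 14232 nt for Notch1, against a median of 3796 nt over tested genes, and only Hes1 was shorter than that median. Longer genes had lower log2 fold changes in EMT6 as a whole, with a median of -0.02 in the shortest of 5 equal length classes and -0.42 in the longest. Within 500 kb of Notch3, 12 of 14 tested neighbours were called lower, and near Notch2 6 of 7 were, beside 42.3% of all tested genes. Near Notch1 13 of 29 neighbours were called lower, and near Hes1 2 of 5. Near Wnt7b only 3 of 11 neighbours were called lower, with a median of -0.07, and near Axin2 and Jag1 1 of 4 each.

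The nearest patterns over the 6 EMT6 libraries were found as the smallest root mean square difference of centred log2(TPM + 1) among genes averaging 10 TPM or more. For Wnt7b it was Col1a1, a collagen chain gene, which had 200.1 TPM in wild-type cells and 52.4 TPM in knockout cells (difference 0.057). For Axin2 it was Pla2g7 (0.144), a phospholipase, for Notch2 Hjurp (0.0407), a centromere chaperone, and for Jag1 Slc29a1 (0.0527), a nucleoside transporter. Hes1 was nearest to Rnpc3 (0.069), and Notch1 to Selenoi, at the widest distance of the 6 (0.302). The libraries are shared by all these genes, and every gene with a similar step between genotypes is near by this measure. Among the 6 genes themselves, Notch2 and Jag1 were the closest (0.154) and Wnt7b and Hes1 the farthest apart (0.543).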

How the data were processed

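The authors deposited TPM in 1 table per line. The submitters' processing notes name Subread 1.6.4, featureCounts, TopHat2 2.1.1 and CASAVA 1.8.2 and the builds mm10 and GRCh38.p7. Settings and use of strand were not given in the sources used here. TPM keeps no depth, so the reads behind a value are unknown. Columns coded A7 and G2, which no label explains, were taken as knockouts by elimination. Mouse names and positions came from GENCODE M21 (GRCm38); human identifiers were named only for the 7 genes.

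Each line was fitted alone with limma 3.58.1 (R 4.3.3) on log2(TPM + 1), using the mean-variance trend, genes at 0.5 TPM or more in 3 of 6 libraries, and Benjamini-Hochberg adjustment over all tested genes. Tests were checked on simulated data. The genes changed there were drawn only among more abundant ones and were far fewer than those called in EMT6. The check therefore does not cover low genes such as Axin2. Named list genes were the called genes of smallest adjusted p, up to 2 per list in each direction, where the higher group averaged 1 TPM or more, besides the 7 genes and their nearest patterns. One gene that this rule names is not reported here. Genes and lists were chosen with earlier results of these data known. Motifs, neighbours and shares were added after seeing the data, as were Ctnnb1, Porcn, Notch4, Jag2, Nrarp and the other list genes named outside that rule. Alternatives were no trend, median-ratio scaling, no filter, a 1 TPM filter, a pseudocount of 0.1, leaving out each library, a replicate block, removal of the exon length trend and omission of the 10 most abundant genes.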

Additional observations from a re-analysis of the deposited data

How the results depend on the processing

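Over all genes in EMT6, calls moved from 1954 higher and 5705 lower to 3644 and 3349 under median-ratio scaling and to 3124 and 3589 with the exon length trend removed. The 6 EMT6 genes were lower under every alternative run, and Notch1 alone lost its call, under length correction. They were chosen with the genotype difference in EMT6 known, so this is a description. The other Wnt and Notch genes called in EMT6 moved from 55 lower and 3 higher to 31 and 7 under length correction. In MDA-MB-231, calls moved from 1220 higher and 1845 lower to 534 and 1030 with a replicate block, and leaving out 1 library gave 543 to 1107 higher and 975 to 1597 lower. Calls higher were 584 without wild-type replicate 1, 759 without wild-type replicate 3, 543 without knockout replicate 2 and 578 without knockout replicate 3; calls lower were 975, 1209 and 1008 without the first 3 of these. The members called lower in MDA-MB-231 were 0 with a 1 TPM filter and 1 to 2 on leaving out a library, and those called higher 0 to 1. HES1 turned sign, to 0.0497 under median-ratio scaling and 0.033 without the 10 most abundant genes, and ran from -0.0346 to 0.0361 on leaving out a library, and NOTCH1 then ran from -0.0865 to 0.145. The cause was not tested. Length correction, human lists and human names were not run for MDA-MB-231, for lack of human exon lengths and names here. Replicate numbers are shared only as numbers: same-numbered libraries had correlations of deviations of 0.0647, -0.0175 and 0.0728 in EMT6 and 0.00168, 0.114 and -0.127 in MDA-MB-231, and the replicate block gave 1629 higher and 5022 lower calls in EMT6. Among the 7 genes and the list genes named by the rule, the block ended the call of Ccnd1 alone. Calls of the cell type markers were not followed under the alternatives.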
